A study of Mus musculus with 19 samples.

Results

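Transcripts of the cyclic AMP-dependent protein kinase, protein kinase A, were followed in mouse cerebral cortex through 10 genes. They comprise the catalytic subunit genes Prkaca and Prkacb, the regulatory subunit genes Prkar1a, Prkar1b, Prkar2a and Prkar2b, the anchoring protein genes Akap5, Akap7 and Akap11, and Creb1, which encodes a transcription factor that the kinase phosphorylates. The genes were taken by symbol from a named list, and all 10 were found among the 55487 genes of the deposited tables and among the 19105 genes tested. Cortical RNA was sequenced in 19 libraries from male P301S/E4 mice. This strain models tau pathology and takes its name from a mutation in tau, found in inherited frontotemporal dementia, and from apolipoprotein E4. The lemborexant group held 10 libraries from mice that received lemborexant, a dual antagonist of the orexin receptors. The dose was 30 mg/kg by daily gavage from 7.5 to 9.5 months of age, timed at zeitgeber time 13. The vehicle group held 9 libraries from mice given 0.5% methylcellulose on the same schedule. All mice were labelled P301S/E4 and recorded as 41 weeks old, so that no group is labelled as lacking the tau transgene. The promoter that drives the transgene is not given in the sources used here. The question put to the data is how transcripts of this kinase system differ after long-term blockade of orexin receptors.

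Protein kinase A is held inactive as a complex of regulatory and catalytic subunits. Cyclic AMP binds the regulatory subunits and frees the catalytic subunits, which phosphorylate ion channels, receptors, cytoskeletal proteins and CREB. Regulatory subunits of type I are largely cytosolic and those of type II are largely held at membranes by A-kinase anchoring proteins. In cortical neurons this system is known for its part in synaptic plasticity and in the transcription of activity-dependent genes.

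Estimated reads on genes numbered 20185098 to 31795633 per library, and the least expressed of the 10 genes, Prkar2b, had at least 148 reads in every library. The spread between libraries, and not counting error, therefore limited the precision. The labels do not state whether every library stems from its own mouse, and the p-values therefore describe the spread among libraries, which may be technical. Lemborexant replicates 1 and 10, 3 and 8, and 4 and 9 were nearly alike. Their counts differed by a chi-square of 3.08 to 3.66 for each degree of freedom, while in the other 168 pairings it was 12.24 to 274.26. The log2 change of each of the 10 genes, and of every other gene past the threshold, is therefore also given with these pairs summed, which leaves 7 lemborexant units and 9 vehicle libraries. Lemborexant 7 stood apart, with the lowest sum of 14 excitatory neuron markers (840 CPM) and the highest sum of 14 thalamic and hypothalamic markers (3002 CPM). Vehicle 7 stood apart by liver transcripts, with a liver marker score (the mean centred log2 CPM of the markers) of 5.98 against at most 1.10 in the other libraries. Cst7, a gene of microglia responding to tau pathology, lay at or below 0.253 CPM in lemborexant 1 and 10 and vehicle 1 and 4, and at or above 16.4 CPM in the other libraries. The summed level of 11 microglia markers was also lowest in these 4, at 452 and 447 CPM in lemborexant 1 and 10 and 568.2 and 709.4 CPM in vehicle 1 and 4, against at least 1157 CPM elsewhere. They carry the same genotype label as the rest, from which they stand apart, and their genotype was not checked here. Reads on ribosomal RNA genes, mitochondrial ones included, made up 2.47 to 5.49% of the lemborexant libraries and 2.40 to 6.90% of the vehicle libraries.

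All 14 markers of cortical excitatory neurons were expressed, with sums of 840 to 4972 CPM in lemborexant libraries and 2977 to 4788 CPM in vehicle libraries. Markers of neighbouring regions differed between the groups. The hippocampal score had p = 0.000487, and 0.000262 with pairs averaged (two-sided exact permutation). In the same test the thalamic and hypothalamic score had p = 0.00848 and 0.0142, and the striatal score 0.0162 and 0.0279. These lists were chosen with earlier results of these data known. All 15 hippocampal markers had lower fitted levels after lemborexant, with sums of 202 to 682 CPM in lemborexant libraries and 512 to 810 CPM in vehicle libraries. All 13 tested striatal markers had higher fitted levels, with sums of 139 to 469 CPM in lemborexant libraries and 120 to 159 CPM in vehicle libraries, and so had all 13 tested thalamic and hypothalamic markers, at 183 to 3002 CPM in lemborexant and 149 to 243 CPM in vehicle libraries. Lemborexant 7 and the nearly alike pair 4 and 9 held striatal sums of at least 447.2 CPM. The other lemborexant libraries held at most 180.3 CPM. After lemborexant 7, the next highest thalamic and hypothalamic sum was 570.3 CPM, in lemborexant 2. Of these markers 3 hippocampal, 1 striatal and 6 thalamic and hypothalamic ones passed the adjusted p threshold, and none did with pairs summed. Among the 6, Pmch and Avp had lemborexant medians of 0.52 and 0.64 CPM but highest values of 1173 and 453.6 CPM. Their vehicle medians were 0.74 and 0.55 CPM. Tcf7l2, Rora, Rgs16 and Trh had higher medians in lemborexant than in vehicle libraries. Trh reached 204.8 CPM over a lemborexant median of 1.94 CPM. Some changes lay near 0, such as log2 changes of -0.002 for Stxbp6 and -0.009 for Prox1. Striatal Pde10a turned from 0.075 to -0.004 with pairs summed. No marker of these lists was at 0 in every library. Fewer cells of a type and less RNA per cell cannot be told apart in these bulk samples.

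Of the 10 genes, Prkacb was the only gene past the threshold of 0.05 on the adjusted p of edgeR's quasi-likelihood test, and it rose after lemborexant. Across the transcriptome 498 of 19105 genes, or 2.61%, passed, of which 182 rose (0.953%) and 316 fell (1.65%). The median log2 change was 0.06 over the 10 genes and 0.03 over all genes tested. With the nearly alike pairs summed none of the 10 genes passed and none of the whole table did. In that fit 1 of the 10 genes and 4102 of all 19224 genes tested had an unadjusted p under 0.05 in the same test. The lowest adjusted p over the table was 0.0711. Levels of a gene are compared between libraries in CPM, its reads scaled to the library total with TMM factors, and levels of different genes are compared in TPM, which also accounts for transcript length.

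**Figure D1:**
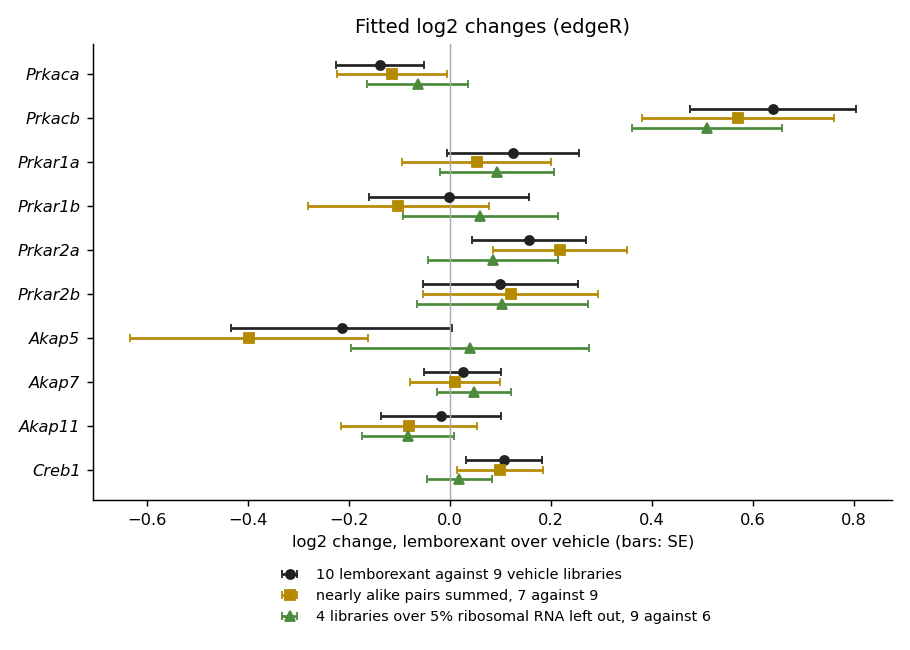
Fitted log2 changes of the 10 genes, lemborexant over vehicle, with standard errors as bars, for 10 lemborexant against 9 vehicle libraries (circles), with nearly alike pairs summed (squares) and without the 4 libraries over 5% ribosomal RNA (triangles). Prkacb lies at 0.64, 0.57 and 0.51 in these fits, farther from 0 than any of the other 9 genes.

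Per length, the regulatory type I transcripts were the most abundant. Mean TPM over the 19 libraries was 366 for Prkar1b and 350 for Prkar1a, 76.1 for Prkacb and 61.8 for Prkaca, and 24.4, 22.5 and 19.5 for Akap5, Akap7 and Akap11. Prkar2a averaged 9.58 TPM, Creb1 7.53 TPM and Prkar2b 4.84 TPM. The lowest library of Prkar1a and Prkar1b, at 157 TPM, lay above the highest library of the catalytic genes, at 126 TPM, and the lowest library of the catalytic genes other than Prkacb, at 44.6 TPM, lay above the highest of the anchors, at 41.3 TPM. Within each of these blocks the ranges of neighbouring genes overlapped. Prkacb itself ran from 49.0 to 126 TPM in lemborexant libraries and from 21.9 to 86.6 TPM in vehicle libraries, and so reached below the highest Akap5 library.

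Prkacb encodes the beta catalytic subunit, which is prominent in brain, and lies on chromosome 3 (GRCm38, chr3:146729574-146812990, minus strand). Its level had a lowest, median and highest value of 155, 266 and 299 CPM in lemborexant libraries and of 87.0, 163 and 225 CPM in vehicle libraries. The groups overlapped, with 7 of the 10 lemborexant libraries above the highest vehicle library and 3 vehicle libraries below the lowest lemborexant library. These 7 were the 3 nearly alike pairs, replicates 1 and 10, 3 and 8, and 4 and 9, and lemborexant 7. They therefore stand for fewer than 7 units. The lemborexant values fell into a group of 7 between 242 and 299 CPM and a group of 3, replicates 2, 5 and 6, between 155 and 171 CPM. Lemborexant 2, 5 and 6 also held the 3 highest sums of the lemborexant group for the 11 microglia markers, at 2191, 2831 and 4207 CPM against at most 1816 CPM, and for 10 astrocyte markers, at 12180, 13500 and 16690 CPM against at most 11560 CPM. Over the groups the microglia sums were 447 to 4207 CPM in lemborexant and 568.2 to 3754 CPM in vehicle libraries and the astrocyte sums 5548 to 16690 CPM in lemborexant and 5507 to 15660 CPM in vehicle libraries, with no marker at 0 in every library, and their part in the Prkacb values was not tested. Mean levels were 241 ± 56.1 CPM in lemborexant (SD, n = 10) and 155 ± 39.3 CPM in vehicle (SD, n = 9), a ratio of 1.56. The fitted log2 change was 0.64 ± 0.16 (SE), and its adjusted p in edgeR's quasi-likelihood test was 0.0421. With pairs summed the means were 228 ± 66.0 CPM in 7 lemborexant units and 154 ± 39.0 CPM in 9 vehicle libraries, and the log2 change was 0.57 with an adjusted p of 0.133. The call held in 6 of the 19 fits that left out 1 library each, those without lemborexant 2, 5 or 6 or vehicle 1, 8 or 9, with log2 changes of 0.57 to 0.72 and adjusted p of 0.0248 to 0.0933 over the 19 fits.

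**Figure D2:**
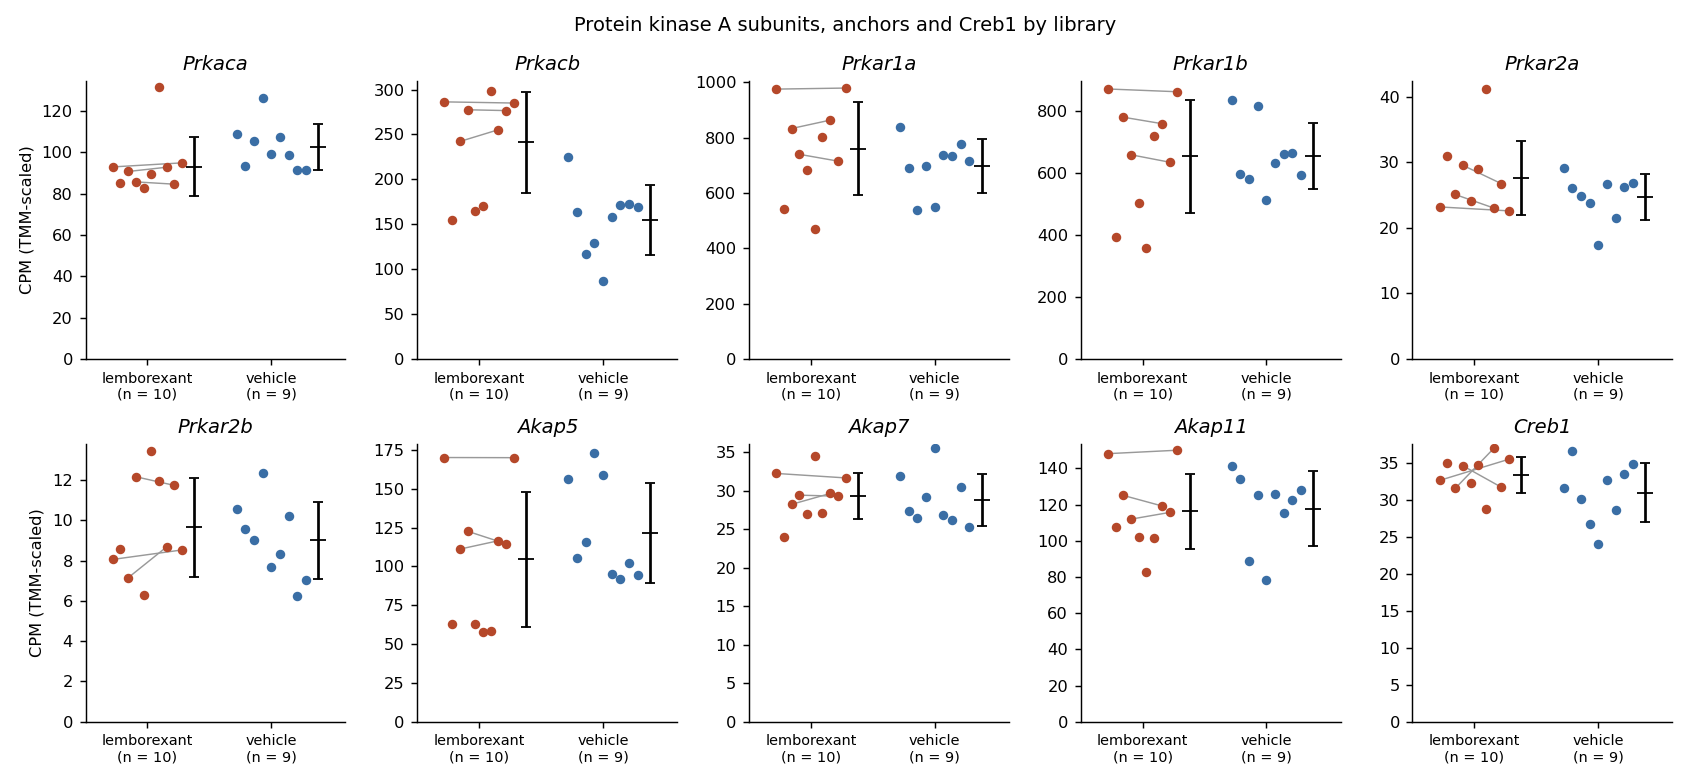
Level of each gene in every library (CPM with TMM factors, linear axes from 0), lemborexant on the left and vehicle on the right of each panel, with mean and SD as bars and grey lines joining nearly alike lemborexant pairs. In the Prkacb panel 7 of 10 lemborexant libraries, the 3 nearly alike pairs and lemborexant 7, lie above the highest vehicle library at 225 CPM. In every panel the groups overlap.

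Prkacb was lower in libraries with more ribosomal RNA. The ribosomal RNA share had a median of 2.76% in lemborexant and 3.82% in vehicle libraries (p = 0.0435, two-sided exact permutation, and 0.135 with pairs averaged). The mitochondrial share averaged 5.02% in lemborexant and 6.48% in vehicle libraries (p = 0.0147 and 0.0608, in the same exact permutation). Its relation to Prkacb across libraries was not tested. Reads on mitochondrial ribosomal RNA genes count in both shares, so that the ribosomal RNA and mitochondrial shares are not separate measures. Over the 16 units, Prkacb's log2 CPM and the ribosomal RNA share had a Pearson r of -0.772 (permutation p = 0.00039, 0.0039 adjusted over the 10 genes) and a Spearman rho of -0.721 (permutation p = 0.00238, adjusted 0.0119). Without the 2 units farthest from the median ribosomal RNA share r was -0.618. It was -0.533 within the 7 lemborexant units (permutation p = 0.169) and -0.86 within the 9 vehicle libraries (permutation p = 0.00166). The 4 libraries over 5% ribosomal RNA were lemborexant 6, at 171 CPM of Prkacb, and vehicle 3, 4 and 5, at 117, 129 and 87.0 CPM, which were the 3 lowest libraries of all.

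In the libraries at or under 5% ribosomal RNA, Prkacb ran from 155 to 299 CPM in 9 lemborexant libraries, with a median of 277 CPM, and from 158 to 225 CPM in 6 vehicle libraries, with a median of 171 CPM. The log2 change among these libraries was 0.51 (adjusted p = 0.193), and it was 0.38 with the ribosomal RNA percent as a covariate (adjusted p = 0.229), both in edgeR fits in which no gene of the table passed. With pairs summed as well, these values were 0.45 and 0.35. With mitochondrial genes left out of the table the log2 change was 0.64 (adjusted p = 0.0422), and without the 4 libraries with almost no Cst7 it was 0.64 (adjusted p = 0.0636). The hippocampal score as a covariate left the log2 change at 0.66 (adjusted p = 0.242) and the striatal score at 0.42 (adjusted p = 0.523), again with no gene of the table called. Among the libraries numbered 1064 to 1602 the log2 change was 0.61, and among those numbered 859 to 933 it was 0.68, with adjusted p of 0.107 and 0.378. The ranges are not independent of each other. Lemborexant 8, 9 and 10, the lemborexant libraries numbered 859 to 933, are the nearly alike partners of lemborexant 3, 4 and 1. In both number ranges all lemborexant numbers lay below all vehicle numbers, so that treatment and the order of numbering cannot be told apart.

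**Figure D3:**
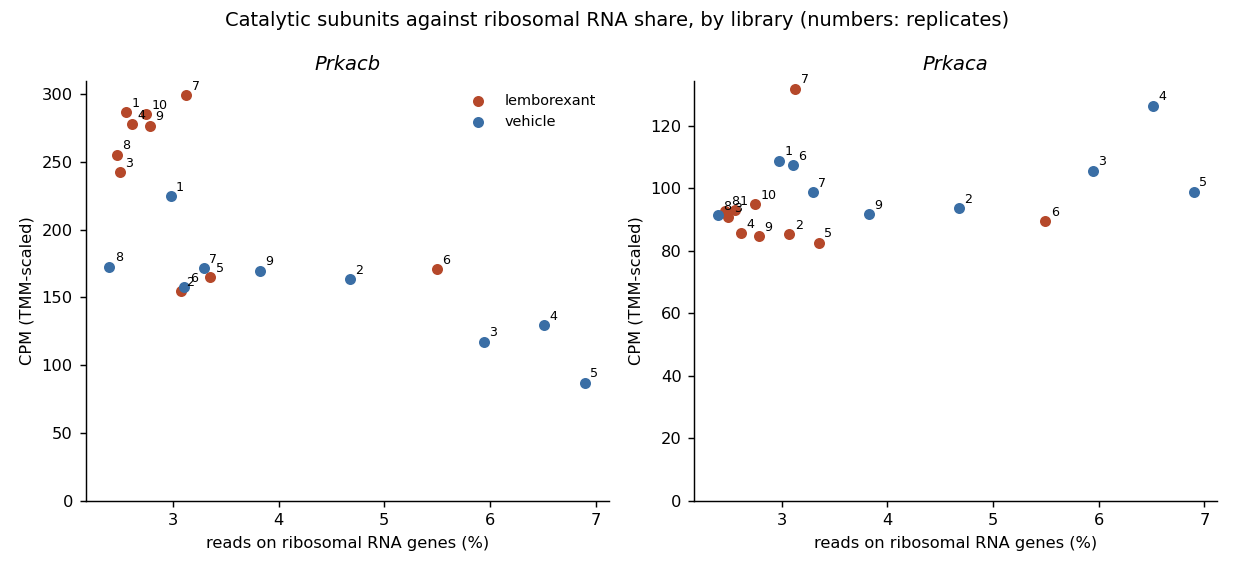
Level of Prkacb (left) and Prkaca (right) in each library (CPM with TMM factors) against the percent of its reads on ribosomal RNA genes, with lemborexant libraries in red, vehicle libraries in blue and replicate numbers beside the points. Prkacb is lowest in vehicle 3, 4 and 5, which lie above 5%, while Prkaca is at 99.0 to 126 CPM in those libraries.

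Prkaca encodes the alpha catalytic subunit, which most tissues express (chr8:83972993-83996443, plus strand). Its lowest, median and highest levels were 82.6, 90.1 and 132 CPM in lemborexant libraries and 91.5, 99.0 and 126 CPM in vehicle libraries. Apart from lemborexant 7 at 132 CPM, the lemborexant libraries lay at or below 95.0 CPM, and 6 of the 10 lay below the lowest vehicle library. These 6 include both libraries of the nearly alike pair 4 and 9. The log2 change was -0.14 ± 0.09 (SE; adjusted p = 0.312 in edgeR's quasi-likelihood test), and it was -0.11 with pairs summed (adjusted p = 0.546). Without lemborexant 7 it was -0.22, the lowest value among the fits that left out 1 library, with an adjusted p of 0.0822. Over the 16 units Prkaca and Prkacb had a Pearson r of -0.0161 and a Spearman rho of -0.0794 (permutation p of 0.952 and 0.771).

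The balance between the catalytic transcripts was read from the deposited TPM. Prkacb made up 59.4 ± 5.85% of the summed catalytic TPM in lemborexant libraries (SD, n = 10, range 50.8 to 65.4%) and 45.8 ± 7.78% in vehicle libraries (SD, n = 9, range 33.0 to 54.2%). Prkacb exceeded Prkaca in all 10 lemborexant libraries, nearly alike pairs counted separately, with ratios of 1.03 to 1.89. The vehicle ratios ran from 0.492 to 1.18. Prkacb also exceeded Prkaca in vehicle 1, 7, 8 and 9, with ratios of 1.183, 1.003, 1.106 and 1.064. The lowest vehicle shares, 38.7, 36.4 and 33.0%, were those of vehicle 3, 4 and 5, the vehicle libraries over 5% ribosomal RNA. The share of Prkacb thus overlapped between the groups in the range of 50.8 to 54.2%. These shares derive from the same reads as the Prkacb comparison and carry no test of their own.

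Summed regulatory over summed catalytic TPM was 4.95 ± 0.81 in lemborexant libraries, with a range of 3.61 to 5.84, and 5.74 ± 0.28 in vehicle libraries, with a range of 5.27 to 6.15. The lemborexant libraries thus spread more widely than the vehicle libraries. Type I transcripts made up 97.8% of the regulatory TPM in lemborexant and 98.1% in vehicle libraries. Within type I, Prkar1b held 49.7 ± 2.42% in lemborexant libraries and 52.4 ± 3.05% in vehicle libraries. Vehicle 4, the library with the second highest ribosomal RNA share, had the highest Prkar1b share at 58.4%. Within type II, Prkar2a held 66.7 ± 4.98% in lemborexant and 65.0 ± 6.50% in vehicle libraries.

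**Figure D4:**
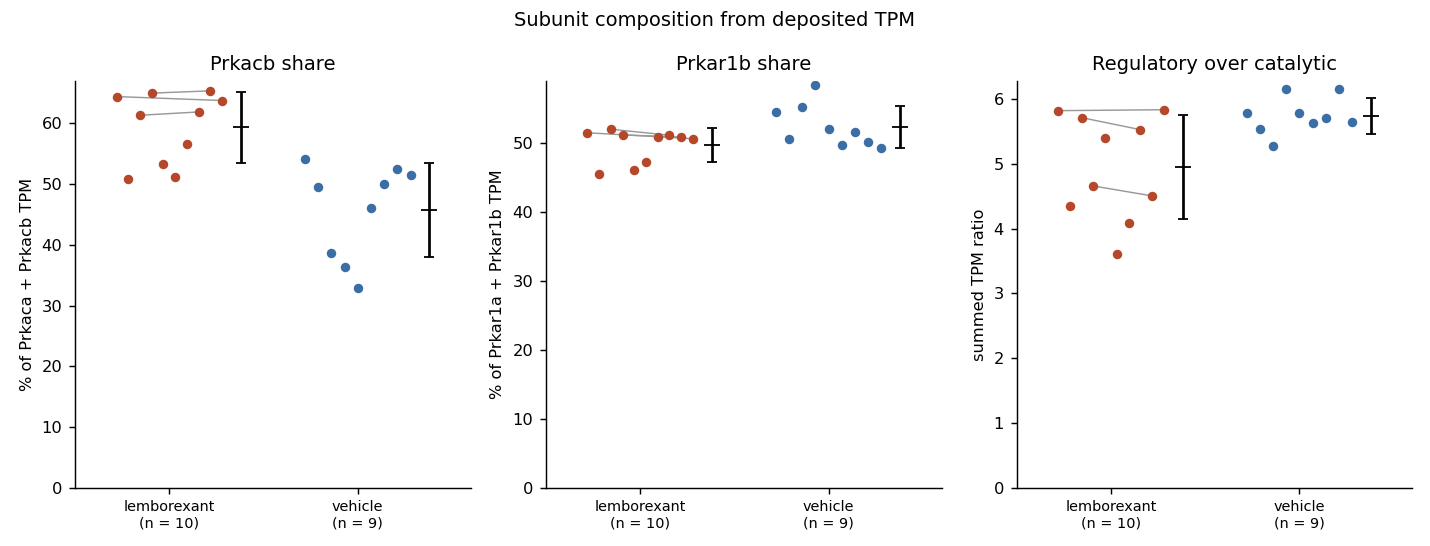
Subunit balance per library from deposited TPM, lemborexant on the left and vehicle on the right of each panel, with mean and SD as bars and grey lines joining nearly alike pairs. The Prkacb share of catalytic TPM averages 59.4% in lemborexant and 45.8% in vehicle libraries, and regulatory over catalytic TPM is more widely spread in lemborexant libraries.

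Prkar1a encodes the ubiquitous type I alpha regulatory subunit (chr11:109649405-109669656, plus strand). Its lowest, median and highest levels were 472, 771 and 979 CPM in lemborexant libraries and 537, 715 and 839 CPM in vehicle libraries. Lemborexant 1 and 10 were highest and lemborexant 6 lowest, so that the lemborexant range enclosed the vehicle range. The log2 change was 0.13 ± 0.13 (SE; adjusted p = 0.56 in edgeR's quasi-likelihood test) and 0.05 with pairs summed (adjusted p = 0.849), and it turned to -0.08 with the ribosomal RNA percent as a covariate. Its level also went down with the ribosomal RNA share over the 16 units, with a Pearson r of -0.666 and a Spearman rho of -0.738 (permutation p of 0.00528 and 0.00143, adjusted 0.0264 and 0.0119), and an r of -0.749 without the 2 farthest units. Within the 7 lemborexant units r was -0.78 and within the 9 vehicle libraries -0.815.

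Prkar1b encodes the type I beta regulatory subunit of neurons (chr5:139017306-139150001, minus strand). Its levels were 358, 688 and 871 CPM at the lowest, median and highest in lemborexant libraries and 513, 633 and 834 CPM in vehicle libraries. The log2 change was -0.002 ± 0.16 (SE; adjusted p = 0.995 in edgeR's quasi-likelihood test) and -0.10 with pairs summed (adjusted p = 0.757). The 4 libraries with almost no Cst7 held the 4 highest values, 871 and 862 CPM in lemborexant 1 and 10 and 834 and 815 CPM in vehicle 1 and 4. The 3 lowest values were 393, 502 and 358 CPM in lemborexant 2, 5 and 6, the same libraries that were lowest for Prkacb among the lemborexant libraries. Without the 4 libraries with almost no Cst7 the log2 change of Prkar1b was -0.01.

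The type II genes were expressed at a lower level. Prkar2a, whose product binds anchoring proteins in most tissues (chr9:108689314-108750436, plus strand), had 22.6, 25.9 and 41.2 CPM in lemborexant libraries and 17.3, 26.1 and 29.1 CPM in vehicle libraries at the lowest, median and highest. Lemborexant 7 held the highest value and vehicle 5 the lowest. The log2 change was 0.16 ± 0.11 (SE; adjusted p = 0.383 in edgeR's quasi-likelihood test), 0.22 with pairs summed and 0.07 without lemborexant 7. Prkar2b, the type II subunit known from brain and fat (chr12:31958476-32061296, minus strand), had 6.27, 8.64 and 13.5 CPM in lemborexant libraries and 6.25, 9.04 and 12.4 CPM in vehicle libraries, with a log2 change of 0.10 ± 0.15 (SE; adjusted p = 0.709 in the same test) and of 0.12 with pairs summed. Its range was almost the same in the groups.

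Akap5 encodes the postsynaptic anchor known as AKAP79/150 in human and rodent, which ties the kinase to glutamate receptors and to calcineurin (chr12:76324891-76334153, plus strand). It was the most variable of the 10 genes, with a coefficient of variation of 34.1% over the 19 libraries, against 32.5% for Prkacb and 10.5% for Creb1. Its lowest, median and highest levels were 57.6, 113 and 170 CPM in lemborexant libraries and 92.1, 106 and 173 CPM in vehicle libraries. Lemborexant 2, 5, 6 and 7, at 57.6 to 63.2 CPM, lay below every vehicle library, while lemborexant 1 and 10 reached 170 CPM. The 2 vehicle libraries with almost no Cst7 held 156 and 173 CPM, and vehicle 5, where Cst7 was highest at 144 CPM, held 159 CPM. The log2 change was -0.21 ± 0.22 (SE; adjusted p = 0.55 in edgeR's quasi-likelihood test), -0.40 with pairs summed (adjusted p = 0.329) and 0.04 without the libraries over 5% ribosomal RNA. Without the 4 libraries with almost no Cst7 it was -0.31 (adjusted p = 0.349).

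The other anchors differed less between libraries. Akap7, whose product tethers the kinase near calcium channels (chr10:25169090-25307870, minus strand), had 24.0, 29.3 and 34.5 CPM in lemborexant libraries and 25.2, 27.4 and 35.5 CPM in vehicle libraries at the lowest, median and highest. Its log2 change was 0.03 ± 0.08 (SE; adjusted p = 0.865 in edgeR's quasi-likelihood test), and 0.01 with pairs summed. Akap11, whose product binds the kinase and glycogen synthase kinase 3 (chr14:78492246-78536808, minus strand), had 82.9, 114 and 150 CPM in lemborexant libraries and 78.4, 126 and 141 CPM in vehicle libraries, with a log2 change of -0.02 ± 0.12 (SE; adjusted p = 0.943 in the same test) and of -0.08 with pairs summed. The 3 lowest values of Akap11, 82.9 CPM in lemborexant 6 and 88.8 and 78.4 CPM in vehicle 3 and 5, were in libraries over 5% ribosomal RNA. Vehicle 4, also over 5%, held 126 CPM, the vehicle median. Over the 16 units Akap11 and the ribosomal RNA share had a Pearson r of -0.571 (permutation p = 0.0198, adjusted 0.0579). Creb1 (chr1:64532645-64604548, plus strand) had 28.8, 33.7 and 37.0 CPM in lemborexant libraries and 24.1, 31.7 and 36.7 CPM in vehicle libraries, with a log2 change of 0.11 ± 0.08 (SE; adjusted p = 0.376 in the same test) and of 0.10 with pairs summed. Its 2 lowest values were those of vehicle 5 and 4, at 24.1 and 26.9 CPM. None of these genes, nor Prkaca or the regulatory genes, passed the threshold in any of the fits made with other settings or fewer libraries.

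**Figure D5:**
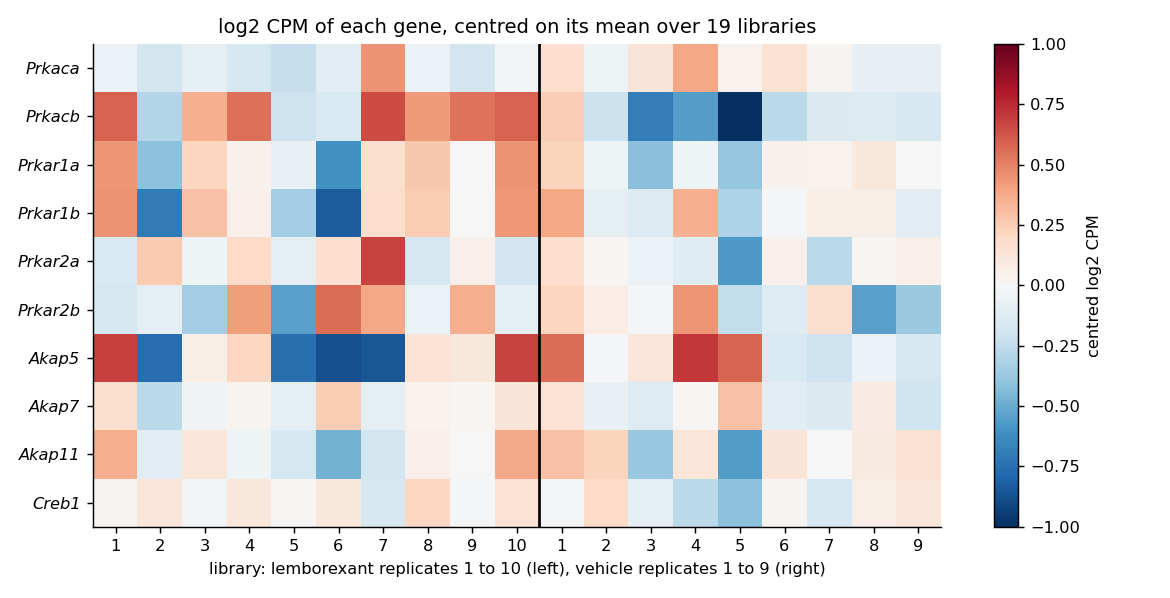
Levels of the 10 genes by library as log2 CPM centred on each gene's mean over the 19 libraries, with lemborexant replicates left of the black line and vehicle replicates right of it, and red for above and blue for below the mean. Prkar1a, Prkar1b and Akap11 share their high libraries (lemborexant 1 and 10) and a low library (lemborexant 6), and Prkacb is lowest in vehicle 5.

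Among the 45 pairs of the 10 genes, the type I regulatory genes went together most closely over the 16 units. Prkar1a and Prkar1b had a Pearson r of 0.872 and a Spearman rho of 0.876 (permutation p of 5e-05 and 4e-05, adjusted 0.00225 and 0.0018 over the 45 pairs), an r of 0.778 without the 2 farthest units, and r of 0.984 within the 7 lemborexant units and 0.704 within the 9 vehicle libraries. Prkar1a and Akap11 had an r of 0.807 (permutation p = 0.00018, adjusted 0.00405) and a rho of 0.624 (permutation p = 0.0122, adjusted 0.127). Prkacb and Prkar1a had an r of 0.692 and a rho of 0.744 (permutation p of 0.00288 and 0.00123, adjusted 0.0364 and 0.0277), an r of 0.65 without the 2 farthest units, and r of 0.811 within lemborexant units and 0.905 within vehicle libraries. Both genes also went with the ribosomal RNA share, as given above, and its part in their relation was not tested. Prkar1b and Akap5 had an r of 0.659 (adjusted permutation p = 0.0484), which was 0.437 without the 2 farthest units, and a rho of 0.553 (adjusted permutation p = 0.179). The lowest r was -0.583, between Prkaca and Creb1 (permutation p = 0.0186, adjusted 0.12), with a rho of -0.606.

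CREB binds the cyclic AMP response element TGACGTCA and its core TGACG. Whether CREB controls any of the 10 genes in these samples was not tested. Over the 16 units Prkar1a went more closely with Prkar1b and Akap11 (Pearson r of 0.872 and 0.807) than with Prkacb (0.692). Stretches at the starts of Prkacb and Prkar1a are shown. They are taken from RefSeq promoter windows (GRCm38.p6) that run from 250 bases before to 50 bases after a transcript start, written 5′ to 3′ on the strand of the gene. Of each gene's windows the one with the most full elements, and then the most cores before the start, was taken. A match within a stretch therefore follows from this choice. The Prkacb stretch ends where a GENCODE exon begins, and of Prkar1a 30 bases around its full element are shown. Capitals mark the element and its core, searched on both strands as TGACGTCA, TGACG and CGTCA, and a full element holds the core on both strands.
Prkacb, chr3:146812991-146813196, minus strand: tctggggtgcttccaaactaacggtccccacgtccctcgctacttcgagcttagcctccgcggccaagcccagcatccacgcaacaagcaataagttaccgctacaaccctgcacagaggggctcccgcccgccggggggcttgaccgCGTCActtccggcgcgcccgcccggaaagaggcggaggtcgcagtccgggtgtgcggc
Prkar1a, chr11:109650889-109650918, plus strand: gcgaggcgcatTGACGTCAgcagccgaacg
The Prkacb stretch holds 1 core and no full element, and the Prkar1a stretch holds a full element. This full element begins at position -49 from a RefSeq transcript start and at position 39 after another, so that it lies downstream of that start. The other Prkacb windows hold no core, and some Prkar1a windows hold neither a core nor a full element. An Akap11 window, not shown, holds 3 cores and no full element. Of the 10 genes, Prkar1a was the only gene with a full element in any of the 25 windows found for them, against 2.03% of 27025 genes with promoter windows. The core was in windows of 6 of the 10 genes, against 23.1% of all genes, and per window in 8 of 25 against 20.8%. A match of letters is a description and not a binding site, and genes with more annotated starts have more windows searched.

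The genes whose levels went most closely with Prkacb over the 16 units, among 9974 protein-coding genes with a mean of at least 10 CPM, were Usp13, a deubiquitinase gene, with a Pearson r of 0.967, Efna5, an ephrin gene, with 0.966, and Rgs17, a regulator of G protein signalling, with 0.959. These values describe likeness between libraries, which share depth, ribosomal RNA share and tissue makeup, and carry no test.

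Other genes of the cyclic AMP pathway were counted in 7 lists. Of 18 tested genes for other anchoring proteins none passed, with a median log2 change of 0.10. Akap9, an anchor at the centrosome and Golgi, had the smallest p among them, with 80.2 ± 11.8 CPM in lemborexant and 63.4 ± 11.2 CPM in vehicle libraries (SD; log2 change 0.34, adjusted p = 0.0722 in edgeR's quasi-likelihood test), and Akap12, a scaffold at the plasma membrane, had 29.6 ± 8.70 CPM in lemborexant and 19.9 ± 6.83 CPM in vehicle libraries (log2 change 0.57, adjusted p = 0.0894). Of 10 tested genes for kinase inhibitors and regulators of its substrates 1 fell and none rose, with a median of -0.11. It was Gpr161, a ciliary receptor that also anchors type I regulatory subunits, with a lowest, median and highest level of 3.09, 8.15 and 13.1 CPM in lemborexant libraries and 10.4, 14.2 and 19.5 CPM in vehicle libraries. Its log2 change was -0.91 ± 0.23 (SE; adjusted p = 0.041), and -0.95 with pairs summed (adjusted p = 0.0885). It was -0.19 with the hippocampal score as a covariate (adjusted p = 0.573), -0.51 with the striatal score and -0.77 with the ribosomal RNA percent. Of 19 fits without 1 library, 9 kept the call.

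Upstream of the kinase, none of 17 tested genes for adenylyl cyclases and G protein alpha subunits passed, with a median log2 change of -0.06. Gnal, the G alpha subunit of striatum and olfactory system, had 69.0 ± 12.3 CPM in lemborexant and 53.6 ± 5.89 CPM in vehicle libraries (SD; log2 change 0.36, adjusted p = 0.0571 in edgeR's quasi-likelihood test), and Adcy8, a calcium-stimulated cyclase, had 12.8 ± 2.52 CPM in lemborexant and 9.56 ± 2.27 CPM in vehicle libraries (log2 change 0.43, adjusted p = 0.0951). Of 16 cyclic nucleotide phosphodiesterase genes 1 rose, with a median of 0.13. Pde7b, a cyclic AMP phosphodiesterase strong in striatum, had 3.15, 8.31 and 9.89 CPM at the lowest, median and highest in lemborexant libraries. In vehicle libraries these were 2.56, 3.76 and 6.09 CPM. With nearly alike pairs counted as separate libraries, 8 of 10 lemborexant libraries lay above the highest vehicle library. Its log2 change was 0.89 ± 0.22 (SE; adjusted p = 0.037), and 0.80 with pairs summed (adjusted p = 0.121). It was 0.54 with the striatal score as a covariate (adjusted p = 0.532), 0.92 with the hippocampal score and 0.57 with the ribosomal RNA percent. Of 19 fits without 1 library, 7 kept the call.

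Of 8 other cyclic AMP effector genes, those for Epac exchange factors, HCN channels and Popeye proteins, 1 rose, with a median of 0.02. Hcn4, a pacemaker channel known from thalamus and heart, was low in both groups, at 0.289, 1.29 and 4.07 CPM in lemborexant libraries and 0.313, 0.542 and 0.903 CPM in vehicle libraries. Its log2 change was 1.62 ± 0.40 (SE; adjusted p = 0.0387 in edgeR's quasi-likelihood test). It was 1.76 with pairs summed (adjusted p = 0.0776) and 1.30 without lemborexant 7 and vehicle 7 (adjusted p = 0.0905). With the hippocampal score as a covariate it was 0.88 (adjusted p = 0.346), with the striatal score 1.25 and with the ribosomal RNA percent 1.54. Of 19 fits without 1 library, 8 kept the call. The summed thalamic and hypothalamic markers had medians of 302 CPM in lemborexant and 192 CPM in vehicle libraries, and their part in the Hcn4 values was not tested.

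None of 13 genes for CREB relatives and coactivators passed, with a median of 0.11. Rps6ka5, a kinase of CREB, had 13.5 ± 1.30 CPM in lemborexant and 11.1 ± 1.85 CPM in vehicle libraries (SD; adjusted p = 0.0917 in edgeR's quasi-likelihood test), and Ep300, an acetyltransferase coactivator, had 16.1 ± 2.02 CPM in lemborexant and 13.2 ± 2.43 CPM in vehicle libraries (adjusted p = 0.127). Of 20 genes known as CREB targets 1 fell and none rose, with a median of -0.07. Nr4a3, an orphan nuclear receptor gene induced by activity, had 3.46, 8.99 and 12.3 CPM at the lowest, median and highest in lemborexant libraries. In vehicle libraries these were 13.02, 16.1 and 19.3 CPM. The share of all tested genes whose groups do not overlap is not given here. Nr4a3 had no overlap between the groups, with nearly alike pairs counted as separate libraries. Its log2 change was -0.91 ± 0.17 (SE; adjusted p = 0.0229 in the same test), and the call held in all 19 fits without 1 library. With pairs summed the log2 change was -0.98 (adjusted p = 0.0711, the lowest of that fit). With the hippocampal score as a covariate it was -0.47 (adjusted p = 0.242), with the striatal score -0.67 and with the ribosomal RNA percent -0.93. With pairs summed, no gene of the 7 lists passed.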

How the data were processed

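Cortical RNA of 10 lemborexant and 9 vehicle libraries was grouped by title and treatment label. Replicate numbers follow the order of the samples, because the labels give library numbers only. The series' design text speaks of triplicates, and the labels were followed. Per the labels' protocols, libraries were made with a SMARTer Ultra Low kit, and the submitters' processing notes name bcl2fastq, DRAGEN 3.9.3-8 and GRCm38. The strand setting is not given in the sources used here. Per the file headers, the authors' tables hold estimated counts, which need not be whole and were rounded for count tests, deposited TPM values, and the weighted length of each gene's transcripts in bases (a score in the deposited tables). Annotated genes that overlap the 10 genes held at most 0.826% of a gene's estimated reads. Symbols and coordinates are those of GENCODE for GRCm38, and promoter sequences are from RefSeq.

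Differences were tested with the quasi-likelihood test of edgeR 4.0.16 (R 4.3.3; robust, TMM factors, expression filter, two-sided). Adjusted p-values are Benjamini-Hochberg values over 19105 genes, called below 0.05. The SE of a log2 change is its size over the square root of F. Correlations are over 16 units with nearly alike pairs averaged, or within the 7 lemborexant units or the 9 vehicle libraries where so stated. Permutation tests used 100000 resamples over the 16 units and all permutations within a group (scipy 1.17.1). On counts simulated from the 10 and 9 libraries (18824 genes tested), the test recovered 54% of 100 genes changed 1.5-fold and 85% of 100 changed 2-fold, with 7 false calls among 146; the nearly alike pairs were drawn as independent. Other tools were DESeq2 1.42.0 and limma 3.58.1 (voom with quality weights, and log2 of TPM with a pseudocount of 1 or 0.1 where the mean reached 1 TPM).

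The 10 genes and all lists were chosen with earlier results of these data known. In each pathway list every gene past the threshold is named, or the 2 with the smallest p where none passed. A score of a marker list is the mean over its genes of centred log2 CPM. The fits without libraries over 5% ribosomal RNA and with that percent as a covariate were added after seeing the data.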

Additional observations from a re-analysis of the deposited data

Results flagged for a closer look

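Of 20 groups of libraries examined, 10 genes in 2 treatments, 3 held a library beyond Dixon's 95% limit. Its gap to its nearest neighbour was a larger part of the group's range than this limit. Chance gives about 1 in 20 such groups where the libraries are independent. The lemborexant limit counts the nearly alike pairs as separate libraries, and it would be higher for fewer independent values. The gaps were not examined with pairs summed. Prkaca had 131.9 CPM in lemborexant 7, against 94.95 CPM in the next lemborexant library, a gap of 0.75 of the range (limit 0.466). Prkar2a had 41.21 CPM in lemborexant 7, against 31.02 CPM in the next, a gap of 0.548 of the range. Lemborexant 7 is also the library with 840 CPM of excitatory neuron markers and 3002 CPM of thalamic and hypothalamic markers, and their part in these values was not tested. Prkaca had 126.4 CPM in vehicle 4, against 108.9 CPM in the next vehicle library, a gap of 0.501 of the range (limit 0.493). Vehicle 4 held 6.51% ribosomal RNA and 0.188 CPM of Cst7.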

How the results depend on the processing

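No paired analysis was possible because the labels give library numbers and no shared replicate numbers. The count of called genes was 498 and that of called genes among the 10 was 1 (Prkacb). Both were 0 with pairs summed, in libraries 859 to 933, with the hippocampal score (also with pairs summed), the striatal score or the ribosomal RNA percent (also with pairs summed) as a covariate, without the libraries over 5% ribosomal RNA (also with pairs summed), and without the libraries with almost no Cst7 with pairs summed. Prkacb was also not called, and 0 of the 10 genes were, without an expression filter (254 genes called), on log2(TPM + 1) (118) and log2(TPM + 0.1) (26), with the number range as a covariate (294), in libraries 1064 to 1602 (8), without lemborexant 7 and vehicle 7 (307) and without the libraries with almost no Cst7 (522). DESeq2 called 1892 genes, voom with quality weights 2217 and a threshold of 0.1 2137, Prkacb among them. Leaving out 1 library or unit gave 0 to 1274 genes and 0 to 1 of the 10; with single libraries left out the lowest count was 31, without lemborexant 9, and the highest 1274, without vehicle 8; lemborexant 2, 4, 6, 8 and 9 and vehicle 1 to 8 each moved the count by over 1.5 times. The Prkacb log2 change was positive in all of these fits, from 0.35 to 0.87. On the TPM scales the median of all genes shifted to 0.18 and 0.20.

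For the other 9 genes, none of which passed in any fit, signs turned as follows. With voom, Prkar1b was 0.04 and Akap5 0.027. On log2(TPM + 1), Prkaca was 0.068, Prkar1b 0.18 and Akap11 0.24, and on log2(TPM + 0.1) they were 0.069, 0.18 and 0.25. In libraries 1064 to 1602 Akap7 was -0.003, and in 859 to 933 Prkar1b was 0.27, Prkar2a -0.13, Akap5 0.45 and Akap11 0.039. With the hippocampal score Prkar1b was 0.28, Prkar2a -0.14, Prkar2b -0.31, Akap5 0.19 and Akap11 0.23, and with pairs summed as well 0.20, -0.15, -0.35, 0.088 and 0.20, with Akap7 at -0.02. With the striatal score Prkar2b was -0.065. Without libraries over 5% ribosomal RNA Prkar1b was 0.06 and Akap5 0.04, and with that percent as a covariate Prkar1a was -0.08, or -0.12 with pairs summed. Leaving out 1 library or unit gave -0.21 to 0.072 for Prkar1b, -0.17 to 0.03 for Akap11, -0.031 to 0.068 for Akap7 and -0.035 to 0.19 for Prkar1a. The cause of these turns was not tested, and all of them are at adjusted p above the threshold. Creb1 alone among the 9 kept its sign in every fit.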

Other observations

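The deposited transcript lengths, which weight each gene's isoforms by their estimated abundance, differed between libraries for some of the 10 genes. The length of Creb1 ran from 6045 to 7543 bases in lemborexant libraries, with a median of 7057, and from 6147 to 7589 bases in vehicle libraries, with a median of 6419. The length of Prkar2a ran from 3841 to 4510 bases in lemborexant libraries and from 3835 to 4658 bases in vehicle libraries. The length of Akap11 ran from 8213 to 9244 bases in lemborexant libraries and from 8619 to 9190 bases in vehicle libraries. Prkaca stayed at 2275 to 2276 bases in all libraries of both groups. The groups overlapped in each case, and no test was made.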
